A study of Rattus norvegicus with 4 samples.

Results

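Bdnf, the gene of brain-derived neurotrophic factor, is 1 of 720 genes that the array measured under a symbol of their own, and 7 of the 1322 probe sets in the deposited table belong to it. All 7 carry the symbol Bdnf in the platform annotation, and every probe set with this symbol is described, whatever its values. The neurons came from rat cortex at embryonic day 17 and had grown for 14 days in Neurobasal medium with B27 supplement. One group of cultures then received 25 mM KCl for 4 h, which depolarizes the cell membrane, and the control group received phosphate-buffered saline for the same time. Each group has 2 arrays, called KCl 1, KCl 2, control 1 and control 2. The labels name no rat strain or genotype. They also leave unsaid whether 2 arrays of a group stem from different cultures, so the p-values reflect the spread of these 4 samples alone, and that spread may be technical. The titles and treatment protocols give the groups, while the sample descriptions word all 4 samples as not activated.

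BDNF is a secreted neurotrophin that acts mainly through the receptor TrkB and supports the survival of neurons and the strengthening of synapses. In rodents its gene has several alternative 5′ exons, each with a promoter of its own, spliced to a common exon that holds the coding sequence of the mature protein. Transcripts from different promoters therefore encode the same mature protein, and some of these promoters are known for their response to calcium entry during depolarization. An element resembling the cAMP response element (CRE), at which the transcription factor CREB acts, is known to take part at the promoter of rodent exon IV.

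The gene lies on rat chromosome 3 at chr3:116619633-116670212 in RefSeq's annotation of build GRCr8, a span of 50580 bases, and RefSeq's promoter table lists 6 start sites for it. The 250 bases before each start, on the plus strand, were searched on both strands for the CRE half-site CGTCA, the full CRE TGACGTCA, the CRE variant TCACGTCA, the E-box CACGTG and the AP-1 site TGANTCA. Numbered 1 to 6 from the 5′ end, the windows of starts 1, 3 and 4 are printed, since start 1 is the 5′-most of the gene and starts 3 and 4 hold the only matches found among the 6. Capitals mark the matches.
Start 1, chr3:116619383-116619632: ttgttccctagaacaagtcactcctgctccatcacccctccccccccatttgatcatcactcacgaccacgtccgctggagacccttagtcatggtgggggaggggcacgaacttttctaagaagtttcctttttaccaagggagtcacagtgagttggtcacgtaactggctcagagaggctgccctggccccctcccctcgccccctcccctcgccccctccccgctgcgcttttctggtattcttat
Start 3, chr3:116621721-116621970: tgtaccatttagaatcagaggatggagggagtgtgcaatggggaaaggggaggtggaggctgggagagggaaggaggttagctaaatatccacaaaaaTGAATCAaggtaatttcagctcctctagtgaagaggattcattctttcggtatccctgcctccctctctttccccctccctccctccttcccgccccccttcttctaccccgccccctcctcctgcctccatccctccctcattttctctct
Start 4, chr3:116637608-116637857: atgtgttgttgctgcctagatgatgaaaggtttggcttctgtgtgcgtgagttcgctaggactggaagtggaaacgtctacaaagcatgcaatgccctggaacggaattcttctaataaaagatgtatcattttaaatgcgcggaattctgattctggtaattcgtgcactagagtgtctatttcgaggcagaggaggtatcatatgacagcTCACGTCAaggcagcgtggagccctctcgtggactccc

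The window of start 4 held TCACGTCA from 38 to 31 bases before the start, and these letters include the half-site CGTCA. Among the 33469 windows of this length in the table, 0.35% held that variant and 18.2% held the half-site. The window of start 3 held an AP-1 match, TGAATCA, from 152 to 146 bases before the start, a motif present in 6.34% of all windows. None of the 5 motifs was found in the windows of starts 1, 2, 5 and 6, and those of starts 5 and 6 overlap each other. A match is a string of letters, and binding was not measured. The sources used here do not tie a probe set to any of these starts.

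What each probe set targets is known here only from its identifier. D10938exon_s_at was built on an exon of a GenBank entry, S71196mRNA_s_at and S71201mRNA_at on the mRNA of an entry, and rc_AI030286_s_at on the reverse complement of an expressed sequence tag. S76758_i_at, S76799_at and X67108_at name an entry without its part. In Affymetrix naming, the ending _s_at marks probes shared by several transcripts, _i_at marks a set with a reduced number of probes, and a plain _at marks probes meant for 1 transcript. The 7 comprise 3, 1 and 3 of these kinds. None of the labels says exon number, coding part or untranslated part, and the probe sequences were not used here. Probe sets of 1 gene on the same array share its RNA and are not replicates of the treatment.

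Intensities are in arbitrary units and can be compared between arrays within a probe set, while a difference between probe sets also holds their difference in probe binding. The background was taken from the 19 array controls for bacterial and yeast RNA, with a median of 9.05 and a highest value of 73.7. A value at or below 73.7 is called within background. The arrays had been brought to 1 level before deposit, with 2% trimmed means of 502.0 to 502.4. Across the 947 probe sets tested, log2 intensities had a Pearson r of 0.97 within the KCl pair and 0.97 within the control pair, and of 0.93 to 0.94 between the groups.

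After KCl, 5 of the 7 Bdnf probe sets rose and none fell. Over all 947 probe sets tested, 5.49% were called higher and 5.28% lower. The 2 probe sets that did not pass were S76799_at, which was well above background in both groups, and S71201mRNA_at, which was within background on all 4 arrays. The median log2 change of the 7 was 1.92, against −0.10 over all probe sets tested. The 7 all lay above the intensity filter (mean over the 4 arrays above 33.2). A probe set is called at a limma p below 0.05 after Benjamini-Hochberg adjustment over the 947. The smallest two-sided p of an exact permutation test on 2 against 2 arrays is 0.33, and the limma calls borrow their spread from all probe sets. The count of 5 was 3 without control 1, 1 without control 2, where D10938exon_s_at alone passed, and 3 when the intensity trend was left out of the variance model.

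**Figure D1:**
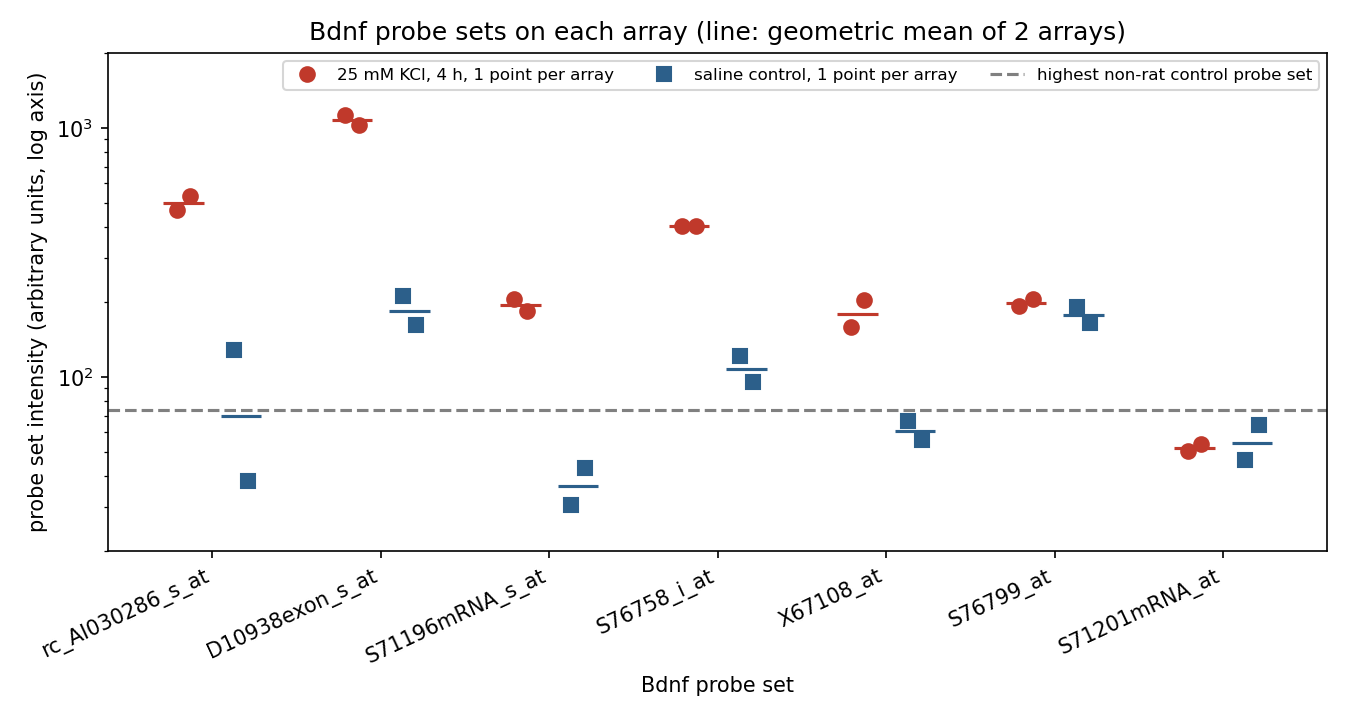
Intensity of the 7 Bdnf probe sets (log axis, arbitrary units) on each array, with KCl as red circles left of control as blue squares, lines at the geometric mean of the 2 arrays of a group and a dashed line at the background limit of 73.7. The KCl points stand clear of the control points in the 5 probe sets on the left, lie just above them in S76799_at and overlap them in S71201mRNA_at.

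D10938exon_s_at, the brightest of the 7 and the one named for an exon, measured 1131 and 1031 on KCl 1 and KCl 2, against 212 and 162 on control 1 and control 2. Both KCl values lay far above both control values. The rise was 5.84-fold, or 2.55 ± 0.17 in log2 (moderated standard error; limma adjusted p = 2.9e-05), with a 95% interval of 4.44-fold to 7.67-fold. It was the 9th largest rise among the 947 probe sets. It passed under all 11 alternatives, with log2 changes between 2.35 and 2.74.

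rc_AI030286_s_at, built on the sequence tag, measured 469 and 531 on the KCl arrays, against 128 and 38.1 on control 1 and control 2. The KCl pair was close and the control pair was not, since control 1 was 3.36 times control 2 and control 2 lay within background. Its log2 change of 2.84 ± 0.47 (limma adjusted p = 0.0069) was the largest of the 7 in size and had the widest interval among the 5 that passed, from 3.38-fold to 15.1-fold. The change was 1.96 without control 2 (limma adjusted p = 0.065) and 3.71 without control 1, so the size of this rise depends on 1 control array. It also did not pass without the intensity trend (adjusted p = 0.13).

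S76758_i_at, the set with the reduced number of probes, measured 405.8 and 405.9 on the KCl arrays, against 121 and 95.2 on the control arrays. All 4 values lay above background, and the groups did not overlap. The rise was 3.78-fold, a log2 change of 1.92 ± 0.20 (limma adjusted p = 0.00057), with a 95% interval of 2.74-fold to 5.21-fold. Without control 2 the adjusted p was 0.070.

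S71196mRNA_s_at measured 206 and 184 on the KCl arrays, against 30.7 and 43.2 on the control arrays. Its signal stood above background after KCl only. The fitted fold was 5.34, with a log2 change of 2.42 ± 0.33 (limma adjusted p = 0.0022). The 95% interval of that fold ran from 3.18-fold to 8.97-fold. The geometric mean of its KCl values was 2.64 times the background limit, a ratio with no error given. The adjusted p was 0.070 without control 1 and 0.065 without control 2.

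X67108_at measured 159 and 204 on the KCl arrays, against 66.6 and 55.9 on the control arrays. Its control values likewise lay within background and its KCl values above it. The geometric mean of its KCl values was 2.44 times the background limit, a ratio with no error given. X67108_at had a fitted fold of 2.95 and a 95% interval of 1.88-fold to 4.62-fold. It had a log2 change of 1.56 ± 0.28 (limma adjusted p = 0.010). It did not pass without control 1 (adjusted p = 0.13), without control 2 (0.19), without the intensity trend (0.060) or with the replicate number as a block (0.056).

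S76799_at measured 192 and 206 on the KCl arrays, against 192 and 164 on the control arrays. KCl 1, at 192.1, exceeded control 1, at 191.6, by less than the arrays of either group differed from each other. The log2 change was 0.17 ± 0.20 (limma adjusted p = 0.66), and its 95% interval, 0.81-fold to 1.54-fold, lay below the interval of each of the 5 probe sets that passed. Its lowest value, 164 on control 2, lay well above the background limit of 73.7. Together with the 5, it makes 6 of 7 probe sets whose KCl arrays both exceeded both control arrays, an order seen in 21.4% of all probe sets tested.

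S71201mRNA_at measured 50.3 and 54.0 on the KCl arrays, against 46.3 and 64.3 on the control arrays. The groups overlapped, and all 4 values were within background. The log2 change was −0.07 ± 0.43 (limma adjusted p = 0.94), with an interval of 0.48-fold to 1.89-fold. A response of the transcript it targets was not detectable at this signal.

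**Figure D2:**
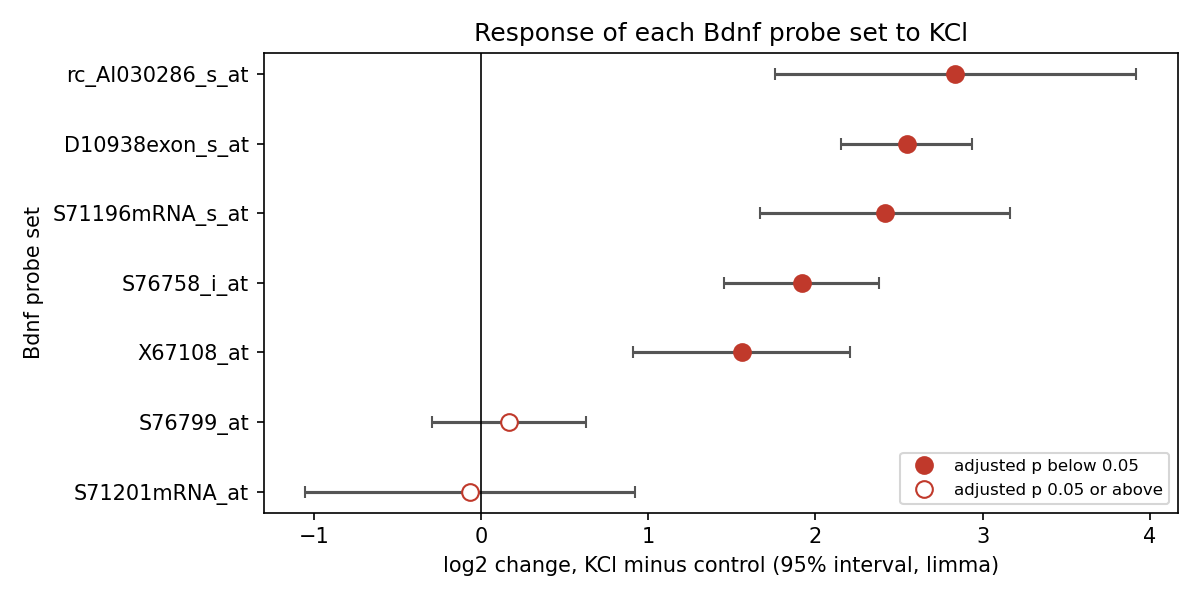
Log2 change of each Bdnf probe set, KCl minus control, with 95% intervals from limma; filled points had an adjusted p below 0.05. The 5 filled points run from 2.84 down to 1.56, and the 2 open points lie at 0.17 and −0.07. Control values within background enter the points of S71196mRNA_s_at, X67108_at, S71201mRNA_at and, on control 2, rc_AI030286_s_at.

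Whether the probe sets of the gene differed in response was tested on their ratios within each array, in which the scale of an array cancels. For each of 194 genes with several tested probe sets, every pair of probe sets gave a log2 ratio per array, and limma compared these ratios between KCl and control over all 418 pairs. Bdnf gave 21 pairs, which share probe sets and are not independent of each other. One Bdnf pair passed, D10938exon_s_at against S76799_at, and 0.239% of all pairs were called, this pair being the only 1. The ratio of D10938exon_s_at to S76799_at was 5.89 and 5.00 on KCl 1 and KCl 2, against 1.11 and 0.98 on control 1 and control 2. The difference between the log2 changes was 2.38 ± 0.23 (limma adjusted p = 0.038), with a 95% interval of 1.80 to 2.96. The pair did not pass without control 1 (adjusted p = 0.26), without control 2 (0.34), without the intensity trend (0.053) or with the replicate block (0.11).

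The other 4 probe sets that rose also had larger log2 changes than S76799_at, although none of these differences passed. The difference was 2.67 ± 0.55 for rc_AI030286_s_at, 2.25 ± 0.44 for S71196mRNA_s_at, 1.75 ± 0.28 for S76758_i_at and 1.39 ± 0.36 for X67108_at, each given here as the log2 change of that probe set minus that of S76799_at, with limma adjusted p-values of 0.14, 0.14, 0.12 and 0.18. The control values of S71196mRNA_s_at and X67108_at, and control 2 of rc_AI030286_s_at, lay within background, so the sizes of these 3 differences depend on background signal. The unadjusted p was below 0.05 in all 5 pairs of S76799_at with a probe set that rose. It was also below 0.05 in the 5 such pairs of S71201mRNA_at, whose values within background limit what a ratio can show. Both sets of pairs were chosen by the calls on the same 4 arrays, which favours low p-values in them. These counts therefore add no support to a difference in response. In all, 12 of 21 Bdnf pairs (57.1%) had an unadjusted p below 0.05, against 42 of the 397 pairs of other genes (10.6%). The 12 include the pairs of S76799_at and S71201mRNA_at just named, and pairs that share a probe set are not independent. These 2 shares were not tested against each other.

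Among the 5 probe sets that rose, none of the 10 pairs passed in limma, while 2 of them had an unadjusted p below 0.05. That is 20% of these pairs, beside 12.9% of all 418 pairs, and both of the 2 hold D10938exon_s_at. The ratio of D10938exon_s_at to S76758_i_at was 2.79 and 2.54 on the KCl arrays, against 1.75 and 1.70 on the control arrays, a difference in log2 change of 0.63 ± 0.21 (adjusted p = 0.28; 95% interval 0.10 to 1.15). Its ratio to X67108_at was 7.13 and 5.06 on the KCl arrays, against 3.18 and 2.89 on the control arrays, a difference of 0.99 ± 0.31 (adjusted p = 0.28; 95% interval 0.22 to 1.75). In both pairs the KCl ratios exceeded the control ratios on every array. Both control values of X67108_at were within background, so the ratio to it cannot show that X67108_at responded less. Its ratio to S71196mRNA_s_at was 5.49 and 5.61 on the KCl arrays, between the control ratios of 6.90 and 3.74. The difference there was 0.13 ± 0.39, with an interval from −0.85 to 1.11 that does not show that the pair responded alike.

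**Figure D3:**
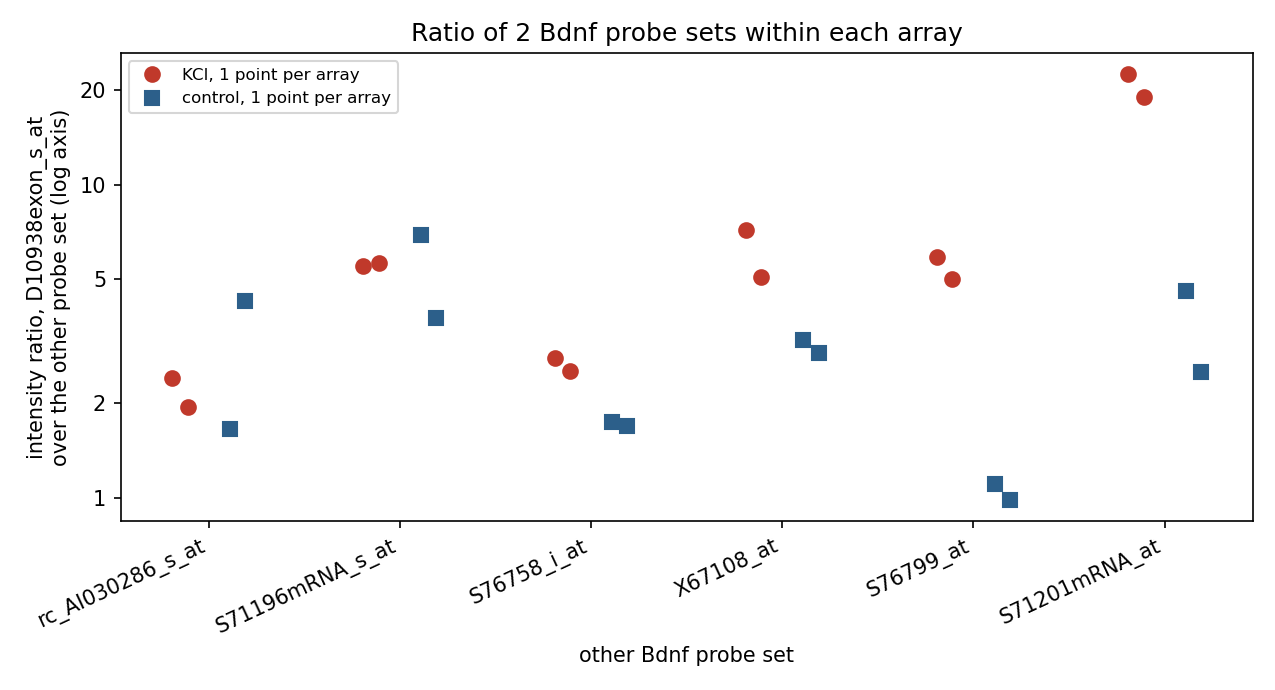
Intensity of D10938exon_s_at divided by that of each other Bdnf probe set on the same array (log axis), KCl as red circles left of control as blue squares. The ratio to S76799_at is 5.89 and 5.00 after KCl and 1.11 and 0.98 in controls, while the ratios to rc_AI030286_s_at and S71196mRNA_s_at overlap between the groups.

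The order of the intensities differed between the groups. After KCl, D10938exon_s_at stood highest, then rc_AI030286_s_at at 469 to 531 and S76758_i_at at 405.8 to 405.9. S76799_at, S71196mRNA_s_at and X67108_at followed with ranges that overlapped, and S71201mRNA_at, within background, lay below them. On the control arrays D10938exon_s_at averaged 187 ± 36 and S76799_at 178 ± 19 (SD, n = 2 arrays), and their ranges overlapped. S76758_i_at, at 108 ± 19, lay apart below them. The 128 and 38.1 of rc_AI030286_s_at spanned the values of S76758_i_at, X67108_at and S71201mRNA_at, and S71196mRNA_s_at averaged 37.0 ± 8.8, with a range that held the 38.1 of rc_AI030286_s_at. The control values of S71196mRNA_s_at, X67108_at and S71201mRNA_at were all within background and have no order there. Because probe sets differ in binding, this order is not an order of transcript amounts.

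Of 58 genes with 3 or more tested probe sets, Bdnf had the 2nd widest range of log2 changes, 2.90, against a median range of 0.52. Its low end, S71201mRNA_at, was within background on all 4 arrays, and its high end, rc_AI030286_s_at, was so on control 2. Over the 3 Bdnf probe sets above background on all 4 arrays the range was 2.38, and that of all 7 lay between 2.61 and 4.02 when 1 array was omitted. Values within background were not removed from the other genes. The number of probe sets per gene varied, and more probe sets can give a wider range. Nos2, the inducible nitric oxide synthase gene, had a range of 3.38 over 5 probe sets, from −0.78 to 2.60, and 1 of them rose. The control values of the Nos2 probe set that rose lay within background. Atp2b2, which encodes a calcium pump of the plasma membrane, ranged over 1.75 with 4 probe sets, 3 of which fell. All 3 probe sets of Fos, the immediate-early gene of an AP-1 subunit, rose, with log2 changes of 3.85 to 4.53. These ranges were not tested against each other.

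**Figure D4:**
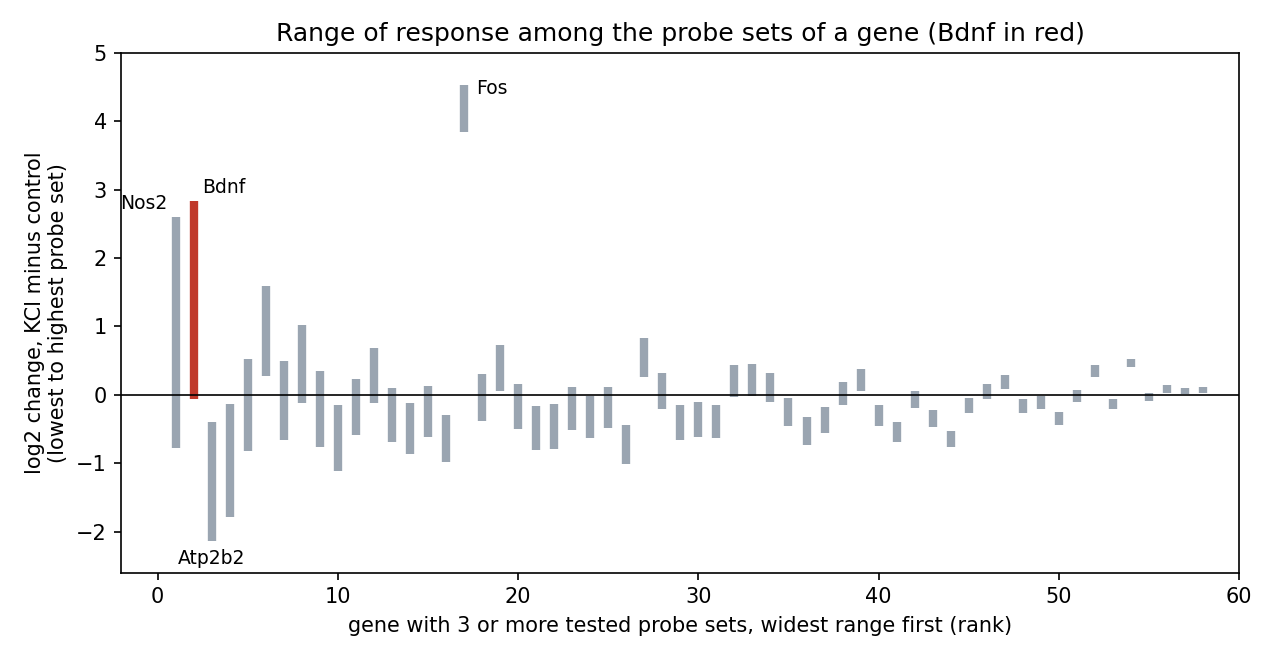
Range of log2 change, KCl minus control, from the lowest to the highest probe set of each of 58 genes, ordered by width, with Bdnf in red. Bdnf runs from −0.07, a probe set within background on all arrays, to 2.84 and Nos2 from −0.78 to 2.60, while the median width over the 58 genes is 0.52.

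The genes whose pattern was most like that of D10938exon_s_at were found by the distance between log2 intensities centred on their mean over the 4 arrays, among 569 other genes, each by its brightest tested probe set. The closest was Crem, a relative of CREB that acts at CREs, at a distance of 0.32 in log2 units. Crem measured 1211 and 1270 on the KCl arrays, against 240 and 232 on the control arrays. Next came Fosl2 and Junb, genes of AP-1 subunits, at 0.43 and 0.51, with rises of 5.27-fold and 7.97-fold. Agtr1b, an angiotensin receptor gene, followed at 0.60, with all 4 values within background and no call. Nos2 and Nr4a1, an immediate-early gene of an orphan nuclear receptor, were at 0.79 and 0.80. Nos2 measured 199 and 357 on the KCl arrays, against 41.5 and 46.5 on the control arrays, which lay within background. Nos2 did not pass without control 1, without control 2 or without the intensity trend (adjusted p up to 0.16), and Agtr1b passed with dim probe sets kept or without the trend. With 4 arrays in 2 groups, such a distance mainly reflects the size of the response.

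Of the other neurotrophin and receptor genes, 4 of 8 listed were tested, and 1 fell and none rose. Over all 570 genes tested by their brightest probe set, 5.09% were called higher and 5.09% lower. Ntf3, which encodes neurotrophin 3, measured 304 and 336 on the KCl arrays, against 570 and 480 on the control arrays, a 1.64-fold fall (limma adjusted p = 0.025) on 1 of its 2 probe sets. Ntf3 did not pass without control 1, without control 2, without the intensity trend or with the replicate block (adjusted p up to 0.24). Ntrk2, which encodes TrkB, measured 1691 and 1312 on the KCl arrays, against 1627 and 1521 on the control arrays, a log2 change of −0.08 ± 0.14 (adjusted p = 0.76). Ngfr, the gene of the p75 neurotrophin receptor, had a log2 change of 0.02 ± 0.12 (adjusted p = 0.93). Ntrk3, the gene of the neurotrophin 3 receptor TrkC, lay within background. The median log2 change of the 4 was −0.39, against −0.09 over 570 genes.

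Of 20 factors described at Bdnf promoters, 6 were tested, and 4 rose and none fell, against the 5.09% of all 570 genes called in each direction, with a median log2 change of 0.84. Fos measured 9745 and 9883 on the KCl arrays, against 720 and 646 on the control arrays. Crem rose 5.26-fold, Jun, the main partner of Fos in AP-1, 1.79-fold, and Egr1, a zinc-finger immediate-early gene, 1.72-fold. Egr1 was called higher on 3 of its 4 tested probe sets, and the lowest of the 4 log2 changes was 0.26. Fos and Crem passed under all 11 alternatives, while Jun and Egr1 did not pass without control 1, without control 2 or without the intensity trend (adjusted p up to 0.29 and 0.16), nor Jun with the replicate block. The 2 that did not pass were Creb1, with 70.0 and 73.8 on the KCl arrays against 40.0 and 40.2 on the control arrays (adjusted p = 0.24), and Nfkb1, with a log2 change of 0.20 ± 0.22. All Creb1 values lay within background except the 73.8 on KCl 2, which was just above the limit of 73.7.

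Of 18 genes for calcium entry and the signalling that leads to Bdnf, 12 were tested and none passed in limma, and their median log2 change was −0.10. The smallest p-values were those of the calcium channel genes Cacna1b, Cacna1d and Cacna1c and of the kinase gene Camkk1, with log2 changes of −0.34 ± 0.12, −0.67 ± 0.25, −0.51 ± 0.21 and −0.32 ± 0.15. Their limma adjusted p-values lay between 0.13 and 0.21, although Cacna1c passed as lower without KCl 2 (adjusted p = 0.017), and the unadjusted p was below 0.05 for 3 of the 12 genes, against 25.4% of all 570 genes. Of 12 genes for processing and secretion 2 were tested. Vgf, whose product is sorted into secretory granules, measured 1115 and 1267 on the KCl arrays, against 582 and 450 on the control arrays, and rose 2.32-fold (limma adjusted p = 0.0017), a call that ended without control 1, without control 2 or without the intensity trend (adjusted p up to 0.14). Plat, which encodes tissue plasminogen activator, lay within background and did not pass.

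Markers of cell types were read on the same arrays. Of 9 tested neuron markers 1 rose and none fell, beside the 5.09% of all 570 genes called in each direction. It was Snap25, called higher on 1 of its 4 tested probe sets. The summed intensity of the 9 was 30836 and 31445 on the KCl arrays, against 32421 and 33721 on the control arrays. Of 7 tested astrocyte markers 6 rose and none fell, beside the same 5.09%, and the sum was 12551 and 9974 on the KCl arrays, against 5484 and 5220 on the control arrays. Each gene was called by its brightest tested probe set. Over all tested probe sets, 1 of 2 was called higher for S100b, 2 of 4 for Slc1a3, 2 of 4 for Glul and 2 of 2 for Apoe. Vim and Gja1 had 1 tested probe set each, and the control values of Gja1 lay within background. Slc1a2, the astrocyte marker that did not pass, lay within background on all 4 arrays. With quantile normalization 4 astrocyte markers and 1 neuron marker were called higher, and with no filter 4 and 0 were. Without control 1, and likewise without control 2 or without the intensity trend, 0 of the 7 astrocyte and 0 of the 9 neuron markers passed, and with the replicate block 3 astrocyte and 0 neuron markers did. The astrocyte sum differed between the groups in the same direction as Bdnf. Gfap and Aqp4, genes that define astrocytes, were not among the symbols of the tested probe sets, but probe sets with no symbol were not matched to genes and may include them. The part of astrocytes in the Bdnf values was not tested. In such bulk samples, more cells of a type and more RNA per cell cannot be told apart. None of 4 oligodendrocyte markers and none of 2 microglial and immune markers passed in limma. Of these 6 genes 0 had an unadjusted p below 0.05, beside 25.4% of all 570 genes. The microglial and immune markers and the oligodendrocyte markers Mbp and Mog lay within background on all 4 arrays, so a change in them could not be seen. The hexokinase controls, which compare the 3′ and 5′ ends of a transcript, had signal ratios of 2.49 and 2.67 on the KCl arrays, against 2.25 and 2.00 on the control arrays, and those of Gapdh and β-actin lay between 1.08 and 1.23 on all 4 arrays. The part of this ratio in the differences among the Bdnf probe sets was not tested.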

How the data were processed

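Biotin-labelled cRNA from 5 µg of total RNA was hybridized to 1-colour Affymetrix neurobiology arrays, per the labels' protocols. The authors deposited 1 linear intensity per probe set and array. How probes were summarized and scaled is not given in the sources used here. All were above 0 and were taken to log2 as deposited. Of 1322 probe sets, 59 Affymetrix controls and the dimmest 25% of the rest by mean intensity (316) were left out, leaving 947. The platform annotation gave 1 symbol to 1137 probe sets, 8 had several and 118 had none, and 1132 matched RefSeq by gene ID with no symbol changed.

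KCl was compared with control by limma 3.58.1 in R 4.3.3 (lmFit, eBayes with an intensity trend, two-sided, Benjamini-Hochberg adjustment). Ratios between probe sets of a gene were fitted likewise, the trend following the mean intensity of the pair, with adjustment over 418 pairs. Errors of log2 changes are moderated standard errors. Both fits were run on simulated arrays. The probe set fit found 92% of true log2 changes of 1 and 100% of those of 2, with 4% of its calls false. The pair fit found 79.3% of true differences of 1 and 92% of those of 2 or more, with 2.01% of its calls false. How far these shares hold for the deposited arrays was not tested. The number of arrays limits the precision, with a median SE of a log2 change of 0.21.

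The members, gene lists and tests were chosen with earlier results of these data known. All Bdnf probe sets are named. Of the pathway lists, members that passed and the 4 with the smallest p are named, each gene by its brightest tested probe set. Creb1, Nfkb1, Fos among the spreads, Snap25, Slc1a2, Mbp, Mog and the 6 astrocyte markers that rose were named after their values were seen. The 6 genes most like Bdnf and the 3 with the widest spread were named too. Alternatives were quantile normalization, median centring, a pseudocount of 16, no filter, a 50% filter, a replicate block, no intensity trend and leaving out each array. Promoter sequences are RefSeq's, build GRCr8.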

Additional observations from a re-analysis of the deposited data

How the results depend on the processing

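The rise of D10938exon_s_at kept its call under all 11 alternatives and S76799_at stayed uncalled under all 11. Quantile normalization, median centring, the pseudocount and no filter left the counts of 5 higher and 0 lower Bdnf probe sets and of 1 called pair as they were; with the dimmest 50% left out, S71196mRNA_s_at and S71201mRNA_at were not tested and 4 were higher. Leaving out each array in turn gave 1 to 5 higher probe sets and 0 to 4 called pairs. Over those 4 settings the log2 change ran from 2.35 to 2.74 for D10938exon_s_at, from 1.96 to 3.71 for rc_AI030286_s_at, from 2.17 to 2.66 for S71196mRNA_s_at, from 1.74 to 2.09 for S76758_i_at, from 1.38 to 1.74 for X67108_at, from 0.055 to 0.28 for S76799_at and from −0.30 to 0.17 for S71201mRNA_at. S71201mRNA_at changed sign without control 2 (0.17, adjusted p = 0.83), as did 4 uncalled differences in response. With an array left out these ran from −0.97 to 0.39 for D10938exon_s_at minus rc_AI030286_s_at, from −0.31 to 0.57 for D10938exon_s_at minus S71196mRNA_s_at, from −0.70 to 1.54 for rc_AI030286_s_at minus S71196mRNA_s_at and from −0.12 to 0.58 for S76799_at minus S71201mRNA_at. Ntrk2 and Ngfr, uncalled throughout, ran from −0.26 to 0.10 and from −0.0023 to 0.045 with an array left out. The alternatives for genes other than Bdnf were chosen after seeing the data. Without the intensity trend 3 probe sets were higher and 0 pairs were called; rc_AI030286_s_at (2.84, adjusted p = 0.13) and X67108_at (1.56, adjusted p = 0.060) did not pass. Samples with the same replicate number did not deviate together (r = −0.03 over probe sets); with the replicate block 4 probe sets were higher and X67108_at did not pass (1.56, adjusted p = 0.056), and 0 pairs were called. The share of all 947 probe sets called was 10.8%; it was 5.28% with the block, 2.22% without the trend, 6.25% with no filter, 16.6% with the 50% filter, and 1.16% to 18.8% with an array left out. The share of pairs was 0.157% with no filter, 0.403% with the 50% filter and 0% to 3.59% with an array left out. Without a control array the spread comes from the KCl pair alone. The causes were not tested.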
